A study of Homo sapiens with 33 samples.

Results

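Kinesins are motor proteins that move along microtubules with the energy of ATP. The kinesin genes were taken by name from the matrix of 58302 genes, as KIF followed by a number and at most a pair of letters, together with KIFC1, KIFC2 and KIFC3. Of 49 genes with such names, 6 pseudogenes or antisense genes were left out, and 43 remained. They were divided by known role into 14 mitotic kinesins, 15 transport kinesins, 13 others and KIF1BP, a kinesin binding protein that is no motor itself. The groups were chosen with earlier results of these data known, and KIF2A, which is also used outside mitosis, was placed among the others. A gene was tested if it reached 100 CP20M (counts per 20000000 reads, the unit of the matrix) in at least 1 of the 33 libraries, and 39 of the 43 did: 13 mitotic, 15 transport and 10 other kinesins, and KIF1BP. The others stayed low in every library, with highest values of 8 (KIF2B), 38 (KIF6), 3 (KIF19) and 19 CP20M (KIF25).

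RNA-seq was done on 6 established cell lines. H2052, H2452, H28 and MSTO-211H are malignant pleural mesothelioma lines that are sensitive to palbociclib, an inhibitor of the cell cycle kinases CDK4 and CDK6. MPP89 is a resistant mesothelioma line with a mutated RB1, the gene of the retinoblastoma protein, and MeT-5A, the other resistant line, is made of SV40-immortalized mesothelial cells. Cells were grown with 1 µM palbociclib or with 0.1% DMSO for 9 or 10 days, in 2 experiments with H2052, 3 each with H2452, H28 and MSTO-211H, 2 with MPP89 and 1 with MeT-5A. In 1 experiment of 10 days of each sensitive line, a further culture was left without palbociclib for 48 h after the treatment (washout), and 1 MeT-5A library came from untreated cells. Each line is a single established culture, and the MeT-5A comparison rests on 1 pair. The p-values measure the spread between experiments, whose independence as cultures the labels do not state. In the fits over the sensitive lines and between the classes, the spread between lines enters as well. For the washout they measure the spread between the sensitive lines, with 1 experiment each. Of the mesothelial markers, KRT8 and KRT18 were at 100 CP20M or more in the DMSO cells of 6 of 6 lines and WT1 in 5 of 6, but MSLN averaged 4.33 CP20M in H28 and 91.0 in MeT-5A, WT1 was at 0 in MeT-5A, and KRT5 did not pass 22 CP20M in any library. None of 8 markers of blood, endothelial or lung epithelial cells averaged 100 CP20M in any line. The depth could be read for 23 libraries and lay between 12800000 and 19900000 reads, so that a read was worth up to 1.57 CP20M.

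Mitotic kinesins build the spindle, move chromosomes and split the cell, and their genes are transcribed mainly in the G2 and M phases of the cell cycle. Transport kinesins carry vesicles, organelles and RNA through the cytoplasm in dividing and resting cells alike. Palbociclib keeps the retinoblastoma protein active, and cells that depend on CDK4 and CDK6 then stop in G1. Promoters of genes of the G2 and M phases often hold a cell cycle homology region (CHR), through which the DREAM complex is known to repress them, and CCAAT boxes, through which the factor NF-Y is known to activate them.

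The promoters of 34 of the 43 kinesins were in the RefSeq windows of GRCh38.p14. In 130 bases, from 100 before to 30 after the start site, the CHR (TTTGAA or TTTAAA, either strand) was found in 12 of 14 mitotic kinesins, in 0 of 11 transport kinesins and in 0 of 9 others, against 12.4% of 27305 genes. CCAAT, on either strand, was found in 11, 2 and 3 of these kinesins and in 23.9% of all genes. Both were present in 10 of 14 mitotic kinesins and in 2.88% of all genes, and in none of the transport or other kinesins. The E2F motifs (TTCCCGC or TTGGCGC or TTCGCGC, either strand) were found in 1 mitotic, 0 transport and 1 other kinesin and in 6.56% of genes. In the longer window of 300 bases the CHR was found in 12, 2 and 0 of the kinesins and in 27.9% of genes. The mitotic kinesins without either of these CHR forms were KIF22 and KIF2B. Other forms of the CHR were not searched. A match is a match of letters and does not show that a factor was bound. The windows of the 4 mitotic kinesins with the largest fall are shown with those of KIF22 (the first of its start sites), of KIF24, which fell although it is no mitotic motor, and of the transport kinesin KIF3B. Capitals mark the CHR and CCAAT matches (on the opposite strand TTTGAA reads TTCAAA and CCAAT reads ATTGG), and each sequence runs 5′ to 3′ on the strand of the gene.
KIF18B, chr17:44947744-44947873, minus strand: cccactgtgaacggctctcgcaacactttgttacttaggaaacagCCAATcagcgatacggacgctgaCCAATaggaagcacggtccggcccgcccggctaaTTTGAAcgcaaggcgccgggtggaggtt
KIF20A, chr5:138179012-138179141, plus strand: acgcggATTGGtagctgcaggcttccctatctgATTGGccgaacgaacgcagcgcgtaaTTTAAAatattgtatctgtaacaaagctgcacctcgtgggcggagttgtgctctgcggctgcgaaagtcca
KIF2C, chr1:44739737-44739866, plus strand: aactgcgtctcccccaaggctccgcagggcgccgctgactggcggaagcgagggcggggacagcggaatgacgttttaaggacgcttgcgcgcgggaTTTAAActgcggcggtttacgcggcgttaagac
KIF14, chr1:200620722-200620851, minus strand: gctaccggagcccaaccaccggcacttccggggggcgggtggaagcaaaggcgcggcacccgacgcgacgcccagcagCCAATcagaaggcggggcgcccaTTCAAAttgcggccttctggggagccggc
KIF22, chr16:29790651-29790780, plus strand: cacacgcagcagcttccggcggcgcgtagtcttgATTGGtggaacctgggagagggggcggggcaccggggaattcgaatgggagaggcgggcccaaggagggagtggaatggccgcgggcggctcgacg
KIF24, chr9:34329239-34329368, minus strand: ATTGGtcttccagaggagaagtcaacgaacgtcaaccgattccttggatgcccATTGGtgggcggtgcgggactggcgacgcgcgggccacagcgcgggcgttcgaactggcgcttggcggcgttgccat
KIF3B, chr20:32277551-32277680, plus strand: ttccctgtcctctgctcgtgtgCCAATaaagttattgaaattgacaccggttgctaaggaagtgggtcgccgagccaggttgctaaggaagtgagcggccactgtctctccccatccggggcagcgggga
KIF18B and KIF20A each held 2 CCAAT matches upstream of a CHR. KIF14 held 1 of each, KIF2C a CHR alone, KIF22 a CCAAT alone, KIF24 2 CCAAT matches and KIF3B 1. The windows of KIF22 and KIF24 also hold TTCGAA, a sequence close to TTTGAA that was not searched or marked. That these promoters lack a CHR of any form is thus not shown.

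**Figure D1:**
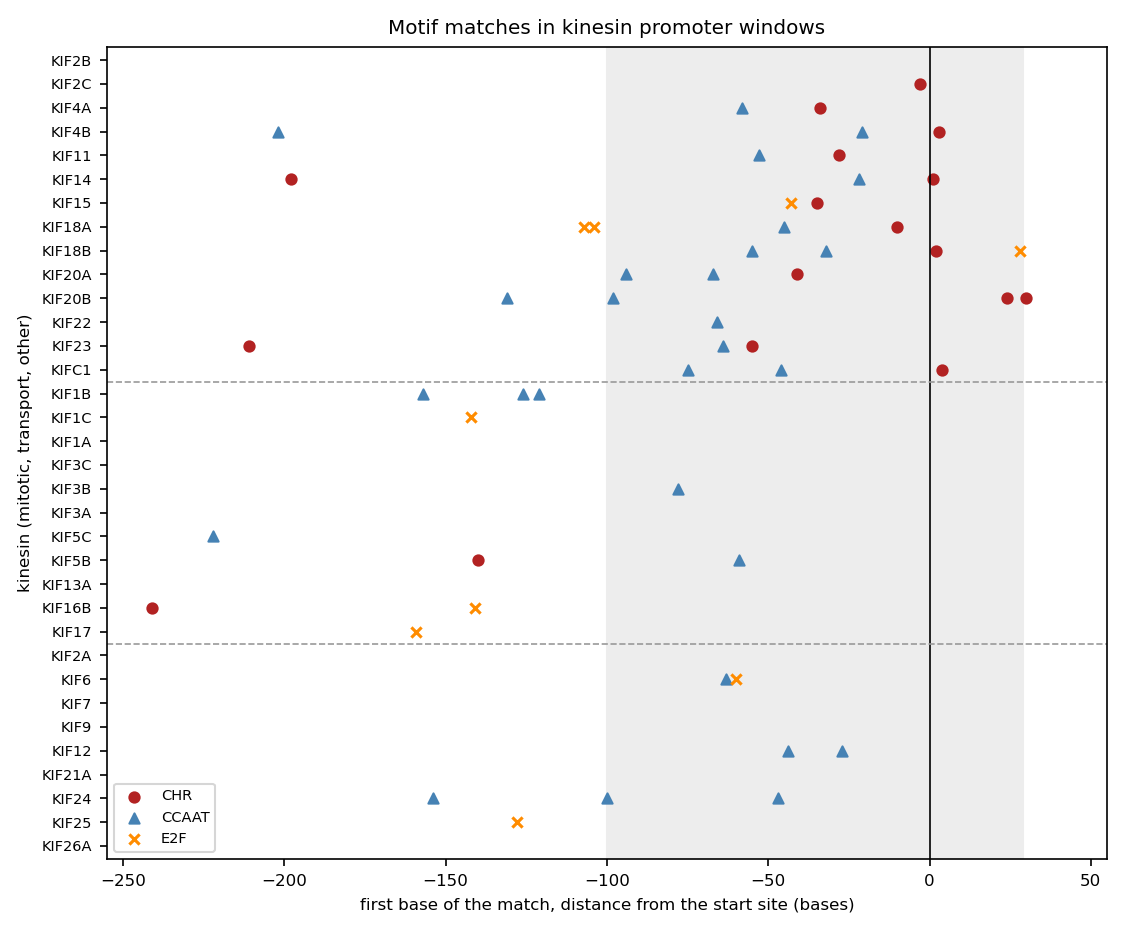
Positions of CHR, CCAAT and E2F matches in the promoter windows of the kinesins, with the distance of the first base of each match from the start site in bases on the x axis and 1 row for each kinesin on the y axis. Each of 12 mitotic kinesins has a CHR match between 55 bases before the start site (KIF23) and 24 after it (KIF20B), while the other groups have 2 genes with a match, KIF5B at 140 and KIF16B at 241 bases before it.

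In the sensitive lines, palbociclib lowered 12 of the 13 tested mitotic kinesins and none of the 15 transport kinesins. A gene was called when its FDR (Benjamini-Hochberg, limma on log2(CP20M + 10), blocked by experiment) was under 0.05 and its fold change over 1.5. Of all 17803 genes tested over the 11 pairs, 9.37% were called down and 5.58% up. The median change of the tested mitotic kinesins was -2.53 on the log2 scale, of the transport kinesins 0.12, of the others -0.21 and of all genes -0.11. The transport median was 0.30 with median-of-ratios scaling, 0.24 with upper-quartile scaling and 0.01 with a pseudocount of 50. Each of the 12 was lower in 11 of 11 pairs. The transport kinesins KIF5B and KIF13A and, of the others, KIF2A and KIF24 were also lower in all 11, by smaller amounts. The share of all genes lower in every pair was not counted. In bulk samples, fewer cells of a type and less RNA per cell cannot be told apart.

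KIF18B (ENSG00000186185, chromosome 17 from 44924709 to 44947773 of GRCh38), which shortens astral microtubules, was at 2272 and 1016 CP20M in the DMSO libraries of H2052, at 1906, 1501 and 1746 in H2452, at 2040, 1290 and 1935 in H28 and at 659, 329 and 1169 in MSTO-211H. With palbociclib H2052 had 281 and 119, H2452 had 52, 89 and 42, H28 had 244, 342 and 207 and MSTO-211H had 315, 36 and 177. Every treated library was below every DMSO library of its line, and H2452 reached the lowest mean. The change over the 11 pairs was -3.14 ± 0.31 (log2 ± SE, limma, adjusted p = 6.6e-06).

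KIF20A (ENSG00000112984, chromosome 5 from 138178719 to 138187723) brings the Aurora B complex to the spindle midzone. In DMSO it was at 2352 and 1552 CP20M in H2052, at 2537, 2009 and 2235 in H2452, at 2413, 1808 and 2176 in H28 and at 710, 598 and 1349 in MSTO-211H. With palbociclib H2052 had 368 and 152, H2452 had 75, 147 and 55, H28 had 547, 536 and 363 and MSTO-211H had 273, 68 and 239. The highest treated library (547) was below the lowest DMSO library (598) over all sensitive lines. KIF20A fell by 2.98 ± 0.31 on the log2 scale (SE, limma, adjusted p = 1.1e-05).

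KIF2C (ENSG00000142945, chromosome 1 from 44739818 to 44767767), a depolymerase that corrects wrong attachments of chromosomes, was at 1365 and 816 CP20M in DMSO in H2052, at 1437, 1001 and 1654 in H2452, at 1678, 1234 and 1715 in H28 and at 556, 487 and 1213 in MSTO-211H. Under palbociclib it was at 190 and 77, at 49, 82 and 49, at 369, 469 and 310 and at 289, 30 and 146 in the same order of lines. Its treated and DMSO libraries did not overlap over all sensitive lines either (highest treated 469, lowest DMSO 487), and it fell by 2.95 ± 0.32 on the log2 scale (SE, limma, adjusted p = 1.2e-05).

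KIF14 (ENSG00000118193, chromosome 1 from 200551497 to 200620751), which works with citron kinase in cytokinesis, was at 1065 and 678 CP20M in DMSO in H2052, at 1237, 873 and 1213 in H2452, at 1612, 1187 and 1687 in H28 and at 553, 360 and 969 in MSTO-211H. Under palbociclib it was at 227 and 142, at 47, 68 and 45, at 339, 429 and 278 and at 210, 28 and 137. The highest treated library, of H28, was above the lowest DMSO library, of MSTO-211H, but within each line the treated libraries were lower. The change was -2.76 ± 0.28 (log2 ± SE, limma, adjusted p = 8.3e-06).

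**Figure D2:**
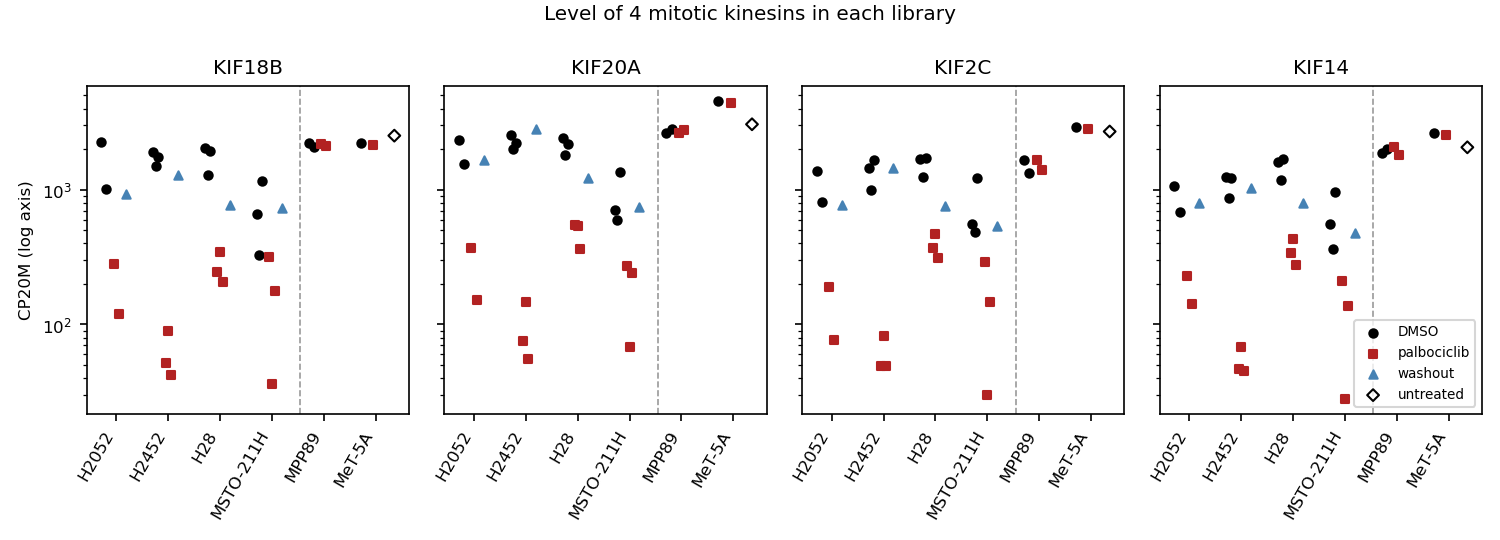
CP20M (log axis) of KIF18B, KIF20A, KIF2C and KIF14 in each library, with the 6 lines on the x axis, the condition by colour and the resistant lines to the right of the dashed line. In the sensitive lines the treated libraries lie below the DMSO libraries of the same line and the washout library lies between or near them, while in MPP89 and MeT-5A the treated and DMSO libraries lie together.

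The other mitotic motors are given by their lowest, median and highest values over 11 libraries of each condition. KIF4A, which orders the midzone and chromosome arms, was at 327, 1106 and 1590 CP20M in DMSO and at 25, 153 and 385 with palbociclib (log2 change -2.76 ± 0.33). KIFC1, a minus-end motor that holds spindle poles together, went from 218, 1018 and 2250 to 21, 124 and 602 (-2.74 ± 0.31). KIF11, which pushes the spindle poles apart, was at 385, 1899 and 2793 in DMSO and at 45, 245 and 661 with palbociclib (-2.53 ± 0.23). KIF15, which can stand in for KIF11 at the poles, went from 215, 330 and 785 to 11, 59 and 217 (-2.51 ± 0.19). The errors are SE over 11 pairs, and the adjusted p-values of these 4 genes lay between 1.1e-06 (KIF15) and 2.5e-05 (KIF4A).

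The remaining 4 called members had smaller falls, of less than 2 on the log2 scale. KIF20B, a motor of late cytokinesis, was at 315, 1316 and 1686 CP20M in DMSO and at 59, 291 and 852 with palbociclib (-1.90 ± 0.22). KIF23, the motor of the centralspindlin complex, went from a median of 1628 to a median of 323, with a lowest DMSO library at 433 and a highest treated library at 647 (-1.86 ± 0.21). KIF18A, which damps the movement of aligned chromosomes, went from 465, 559 and 924 to 57, 228 and 320 without overlap (-1.65 ± 0.20). KIF22, which pushes chromosome arms away from the poles and has no match to either CHR form searched, went from 551, 1294 and 2128 to 258, 401 and 1085 (-1.43 ± 0.15, adjusted p = 1.2e-05). It had the smallest fall of the 12, and its highest treated value was above its lowest DMSO value. KIF4B, an intronless copy of KIF4A, was at 6 CP20M or less in the 4 sensitive lines and changed by -0.23 ± 0.10 (adjusted p = 0.064). It passed the filter through MPP89 (118 and 86 CP20M in DMSO, 115 and 75 with palbociclib), and since its sequence is close to that of KIF4A its reads are uncertain. The promoter window of KIF4B holds both a CHR and a CCAAT match. The 12 mitotic kinesins with a CHR match are thus not the same genes as the 12 called down.

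Within H2052, H2452, H28 and MSTO-211H, all 12 mitotic kinesins had every treated library below every DMSO library, as had 52.1%, 27.3%, 21.4% and 24.3% of all genes tested. Over the 11 treated and 11 DMSO libraries of all 4 lines together, KIF2C, KIF18A and KIF20A did not overlap, against 0.635% of all genes. In the fit with a term for each line, these 12 were also called down in each sensitive line, where the share of all genes called down was 20.8% (H2052), 11.8% (H2452), 10.1% (H28) and 15.5% (MSTO-211H). The median change of the 13 tested mitotic kinesins in a pair was -2.15 ± 0.04 in H2052 (mean ± SD, n = 2), -3.55 ± 0.51 in H2452 (n = 3), -2.0 ± 0.57 in H28 (n = 3) and -2.07 ± 0.91 in MSTO-211H (n = 3). The smallest, -1.03, was in the first MSTO-211H pair. Leaving out a pair of the line left at least 10 calls in H2052 and in H28 and 12 in H2452 and MSTO-211H.

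**Figure D3:**
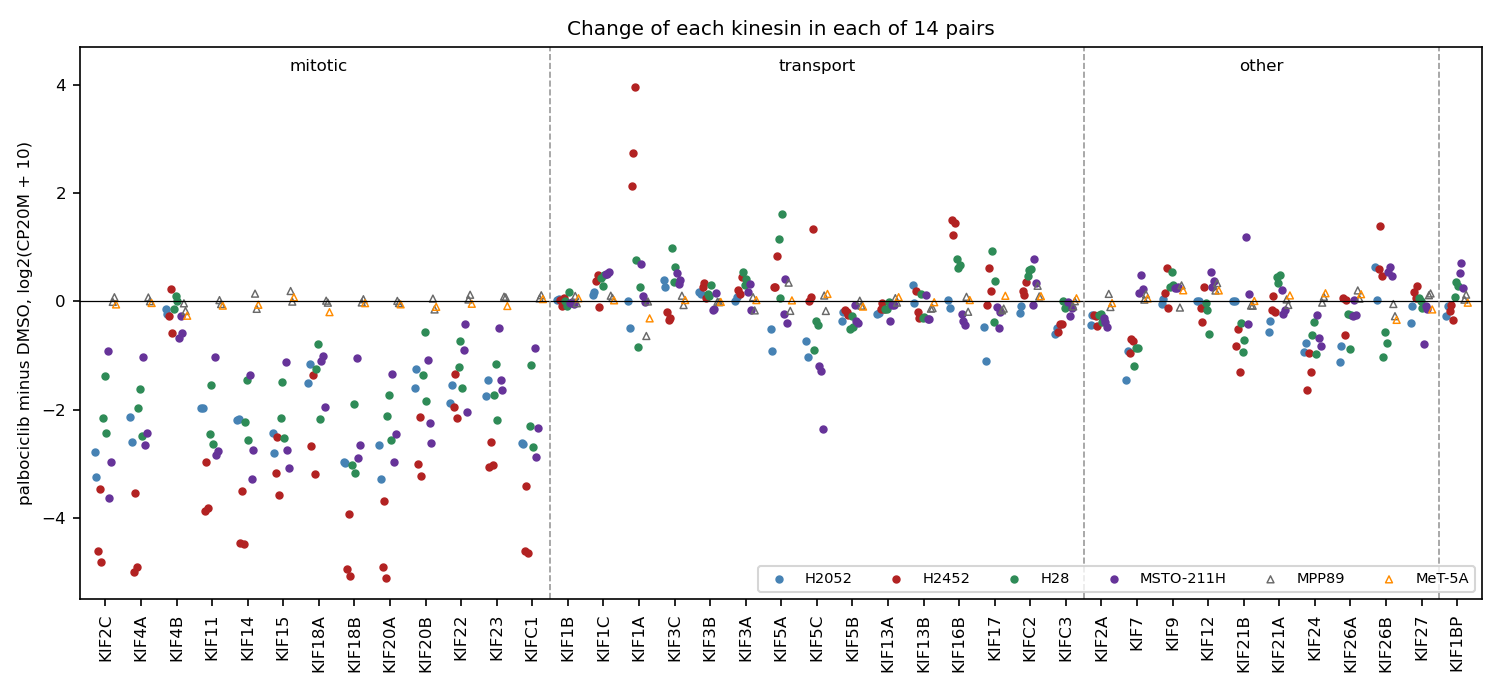
Palbociclib minus DMSO on the log2(CP20M + 10) scale (y axis) for each tested kinesin (x axis) in each of the 14 pairs, coloured by line. The mitotic kinesins other than KIF4B lie below 0 in the 11 pairs of the sensitive lines and near 0 in the 3 pairs of MPP89 and MeT-5A, and the transport kinesins scatter on both sides of 0, with KIF1A and KIF16B highest in H2452 and KIF5C lowest in MSTO-211H.

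The size of the fall differed between the sensitive lines for 9 of the 13 mitotic kinesins (limma F test of the treatment terms at FDR under 0.05), but 43.6% of all genes passed that test. KIF20A changed by -4.57 ± 0.77 in H2452 (log2, mean ± SD of pairs), by -2.96 ± 0.44 in H2052, by -2.25 ± 0.83 in MSTO-211H and by -2.14 ± 0.41 in H28 (adjusted p = 0.0022). For KIF18B the changes were -4.65 ± 0.63, -2.98 ± 0.01, -2.19 ± 1.00 and -2.69 ± 0.70 in the same order (adjusted p = 0.0054). KIF22 did not pass the test, with changes of -1.81 ± 0.42, -1.71 ± 0.24, -1.12 ± 0.84 and -1.18 ± 0.43. H2452 had the largest mean fall of these 3 genes. Without the experiment as a block, KIF4A, KIF20A and KIF23 were left among the 9.

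None of the 39 kinesins was called in MPP89 or in MeT-5A, nor was any other gene (0% called down and 0% called up in both lines), and none of the 39 had an unadjusted p under 0.05 there (limma). Over all genes 102 in MPP89 (0.573%) had an unadjusted p (limma) under 0.05, a smaller share than the 0.05 expected with no change. The lines share an estimate of the spread, and the MeT-5A term rests on 1 pair. A lack of calls here thus does not show a lack of change. KIF18B was at 2209 and 2060 CP20M in the DMSO libraries of MPP89 and at 2182 and 2121 with palbociclib, and in MeT-5A at 2211 in DMSO, 2164 with palbociclib and 2518 in the untreated library. KIF20A was at 2635 and 2809 and then 2655 and 2753 in MPP89, and at 4559, 4395 and 3058 in MeT-5A in DMSO, palbociclib and untreated cells. In MPP89 the values of both genes with palbociclib lay within the range of those in DMSO. Those of KIF23 (2605 and 2614, then 2770 and 2758) and KIFC1 (2109 and 1960, then 2194 and 2123) were higher with palbociclib, without overlap. Over the 13 tested mitotic kinesins, single pairs changed by -0.26 to 0.19, and the median of a pair was -0.05 in MeT-5A and 0.02 ± 0.03 in MPP89 (SD, n = 2).

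The difference in response between the sensitive and the resistant lines was itself tested. It was called for the same 12 mitotic kinesins, from -3.14 (KIF18B) to -1.47 (KIF22), with adjusted p-values (limma) of 0.0016 to 0.024, and for KIF24 (-0.92 ± 0.23, adjusted p = 0.022), while 5.62% of all genes were called lower and 1.13% higher. No transport kinesin was called, and 2 of 15 had an unadjusted p under 0.05, as had 26.7% of all genes (limma). Only 3 resistant pairs, from 2 lines, enter this test, and pairs of the same line count as separate units. With line means as units, KIF15 alone of the 12 was called. The adjusted p-values (limma) of the 12 were then 0.020 to 0.11, and their median difference was -2.64. With the first MPP89 pair, the second MPP89 pair or the MeT-5A pair left out, KIF11 and KIF15 were still called and the other 10 and KIF24 were not, while the genes called lower among all genes went from 1000 to 171, 207 and 149. The median difference over the 12 in these 3 fits was -2.60, -2.71 and -2.68, and the highest unadjusted p (limma) of any of them was 0.0070.

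None of the 15 transport kinesins was called over the sensitive lines, and their changes lay between -0.62 (KIF5C) and 0.85 (KIF1A) on the log2 scale. KIF5B, the heavy chain of conventional kinesin, was at 3720, 5784 and 10699 CP20M (lowest, median and highest of 11) in DMSO and at 3256, 4532 and 9356 with palbociclib, a change of -0.29 (log2, adjusted p = 0.00050). KIF1C, a motor of vesicle transport, was at 3817, 6413 and 7423 in DMSO and at 4659, 7659 and 9105 with palbociclib, a change of 0.35 (adjusted p = 0.00080). At FDR under 0.05 with no minimum fold, KIF1C, KIF3A (0.23) and KIFC2 (0.28) were higher and KIF5B, KIFC3 (-0.28) and KIF13A (-0.14) lower, and 33.7% of all genes were lower and 14.6% higher by that rule. This tally is for values scaled to the library total. With median-of-ratios scaling 7 transport kinesins (those 3, KIF1B, KIF3B, KIF3C and KIF16B) were higher and 0 lower, beside 25.7% and 18.9% of all genes, and with upper-quartile scaling the same 7 were higher and KIF5B and KIFC3 lower. The unadjusted p, with the library total, was under 0.05 for 11 of the 15 and for 55.2% of all genes. Changes this small depend on the scaling. The median change of all genes was -0.11 with scaling to the library total, 0.04 with median-of-ratios scaling and -0.01 with upper-quartile scaling, and the share of calls that were up was 37.3%, 63.0% and 54.7%. KIF13A was at 0.03 and -0.02 with median-of-ratios and upper-quartile scaling, and the values of KIF13B, KIF17, KIF21A and KIF27, between -0.09 and 0.00 with the library total, also turned positive with them. In H2052 alone the median of all genes moved from -0.24 to 0.00 and -0.06.

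Larger changes of transport kinesins were found in single lines. KIF1A, a motor of synaptic vesicle precursors, was at 14, 6 and 15 CP20M in DMSO and at 95, 97 and 380 with palbociclib in H2452, where it was called up (2.94 ± 0.33, log2 ± SE, limma, adjusted p = 3.6e-05). Its treated libraries in H2452 were all above its DMSO libraries, but they were far below its level in MSTO-211H, at 1913, 3184 and 2383 in DMSO and 3093, 3424 and 2360 with palbociclib. In the other 4 lines it did not pass 62 CP20M in any library. Over the sensitive lines its change was 0.85 ± 0.39 (adjusted p = 0.087), and without the second H28 pair it was called up at 1.02.

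KIF16B, a motor of early endosomes, rose in H2452 from 51, 53 and 68 CP20M to 164, 138 and 202 (1.40 ± 0.10, limma, adjusted p = 1.5e-06) and in H28 from 317, 283 and 274 to 556, 437 and 444 (0.69, adjusted p = 0.00035). In MSTO-211H it was at 488, 421 and 440 in DMSO and at 417, 327 and 324 with palbociclib (-0.34, under the fold required). The response of KIF16B differed between the lines (limma F test, adjusted p = 3.9e-05), and over the 11 pairs it was 0.47 ± 0.20 (adjusted p = 0.061), or 0.64 and called up with median-of-ratios scaling.

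KIF5C, a heavy chain known from neurons, was at 217, 301 and 316 CP20M in DMSO and at 90, 118 and 54 with palbociclib in MSTO-211H (-1.60 ± 0.26, limma, adjusted p = 0.00036). In H2052 it went from 1221 and 1164 to 731 and 565 (-0.88, adjusted p = 0.043), and in H2452 it was at 28 CP20M or less in DMSO and palbociclib. Both falls were without overlap of the libraries, and the change over the sensitive lines was -0.62 ± 0.25 (adjusted p = 0.055). Without the second or the third H2452 pair, KIF5C was called down over the sensitive lines at -0.69 and -0.82. Other calls were the rises of KIF3C (0.66) and KIF5A (0.95) in H28 and the fall of KIF17 (-0.78) in H2052. The shares of all genes called up were 5.91% (H2052), 7.24% (H2452), 8.36% (H28) and 10.6% (MSTO-211H). The H28 rises were from 713, 983 and 847 to 1421, 1258 and 1330 CP20M for KIF3C, without overlap, and from 8, 10 and 4 to 30, 11 and 33 for KIF5A. The calls of KIF1A and KIF16B in H2452, of KIF16B in H28 and of KIF5C in MSTO-211H were made under every alternative run. Those of KIF5C and KIF17 in H2052 were lost with either other scaling and without either H2052 pair. In H28, KIF3C was not called without pair 1 and KIF5A without pair 1 or 3.

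Of the other kinesins, KIF24 and KIF7 were called down over the sensitive lines. KIF24 (ENSG00000186638, chromosome 9 from 34252380 to 34329268), which restrains the growth of cilia in cycling cells, was at 304 and 152 CP20M in DMSO and 154 and 85 with palbociclib in H2052, at 298, 260 and 223 and then 89, 130 and 85 in H2452, at 523, 515 and 427 and then 337, 392 and 213 in H28, and at 210, 155 and 267 and then 175, 94 and 147 in MSTO-211H. It was lower in 11 of 11 pairs, although the libraries overlap in H2052 and MSTO-211H, and fell by 0.85 ± 0.12 on the log2 scale (SE, limma, adjusted p = 7.5e-05). In MPP89 it was at 333 and 329 in DMSO and 328 and 350 with palbociclib, and in MeT-5A at 755 and 840. KIF24 was thus lowered in the sensitive lines, by less than any of the 12 mitotic kinesins.

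KIF7 (ENSG00000166813, chromosome 15 from 89608789 to 89663086) acts in Hedgehog signalling at the tip of the cilium. It was at 919 and 608 CP20M in DMSO and 330 and 317 with palbociclib in H2052, at 510, 452 and 275 and then 258, 275 and 162 in H2452, and at 664, 609 and 558 and then 286, 332 and 304 in H28, but in MSTO-211H at 1086, 703 and 860 and then 1207, 988 and 1015. It was lower in 8 of 11 pairs and higher in the 3 MSTO-211H pairs, and its response differed between the lines (limma F test, adjusted p = 0.00027). The change over all 11 pairs was -0.62 ± 0.17 (adjusted p = 0.0081), and it was -0.45 and -0.50, under the fold required, with median-of-ratios and upper-quartile scaling. With the first pair of H2052, H2452 or H28 left out it was -0.53, -0.58 or -0.56, also under that fold.

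KIF2A, a depolymerase and relative of KIF2C that is also used outside mitosis, was at 1386, 1518 and 2518 CP20M (lowest, median and highest of 11) in DMSO and at 1068, 1258 and 1923 with palbociclib. It was lower in 11 of 11 pairs by a small amount (-0.34, limma, adjusted p = 5.6e-05) and so was not called. KIF26A changed by -0.39, KIF9 by 0.23, KIF26B by 0.22 and KIF12 by 0.02, none of them called, and the binding protein KIF1BP by 0.12. KIF26B, an atypical kinesin, was called down in H28 (1051, 1007 and 1202 CP20M in DMSO, 511, 674 and 702 with palbociclib) and up in H2452 (99, 32 and 162, then 155, 101 and 228), though in H2452 the libraries overlap. Without the first H28 pair or the second H2452 pair, KIF26B was not called in that line. KIF21B, which slows microtubule growth, was called down in H2452 and H28 from levels under 60 CP20M, and these calls were lost, among others, without any of the 3 H28 pairs in H28 and without pair 1 or 3 in H2452. KIF24 and KIF26A were also called down in H2052 (-0.85 and -0.97), but without the first H2052 pair KIF7 alone was left there, and in H28 the call of KIF24 was lost without the third pair. In MSTO-211H, KIF24 was called down without the first pair, KIF21B up without the second and KIF1BP up without the third.

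After 48 h without palbociclib, the 12 mitotic kinesins that had fallen were above their level under treatment in 4 of 4 lines. KIF18B was at 927 CP20M in the washout library of H2052, beside 1016 in DMSO and 119 with palbociclib in the same experiment. It was at 1282 in H2452 beside 1746 and 42, at 764 in H28 beside 1935 and 207, and at 727 in MSTO-211H beside 1169 and 177. The washout library was above the palbociclib library and below the DMSO library of the same experiment in each line. KIF20A was at 1650, 2841, 1211 and 749 in these 4 washout libraries beside 1552, 2235, 2176 and 1349 in DMSO, so that it was above the DMSO library of its experiment in H2052 and H2452 and below it in H28 and MSTO-211H.

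In the 12 libraries of these experiments, with the line as a block, 11 of 13 mitotic kinesins were called up after washout against palbociclib, as were 1.4% of all genes, and 0% were called down. The largest rises were those of KIF20A (3.03 ± 0.52, log2 ± SE, limma, adjusted p = 0.025), KIF4A (2.88) and KIF18B (2.83 ± 0.41, adjusted p = 0.018), and the smallest was that of KIF22 (1.27, adjusted p = 0.022). KIF18A was 1.5 higher on the log2 scale but was not called (adjusted p = 0.084), nor was KIF24 (1.01, adjusted p = 0.056). None of the 26 kinesins outside the mitotic group was called (limma, 3 with an unadjusted p under 0.05, beside 13% of all genes). Without H2052, H2452 or MSTO-211H none was left, and without H28 there were 5 (KIF2C, KIF11, KIF15, KIF22 and KIF23). In these fits all 12 kept an unadjusted p of 0.0065 or less and the same direction, with median differences of 1.85 to 2.73.

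Against DMSO, 0 of the 39 kinesins were called after washout (limma, 6 with an unadjusted p under 0.05, beside 29.6% of all genes), while 2.95% of all genes were called lower and 2.81% higher. The washout comparisons share their palbociclib and DMSO libraries with the other comparisons. Relative to the DMSO library of the same 10-day experiment, the 12 mitotic kinesins without KIF4B were at a median of 18.4% with palbociclib and 112% after washout in H2052, at 4.14% and 91.3% in H2452, at 17.0% and 45.6% in H28 and at 16.4% and 54.6% in MSTO-211H. After washout, 12 of 12 were below this DMSO library in H28 and in MSTO-211H, 9 of 12 in H2452 and 3 of 12 in H2052. The DMSO libraries are labelled 9 or 10 days, and none is labelled with the further 48 h of the washout cultures. These levels turn on a single DMSO library in 2 lines. Relative to the mean of the 9-day DMSO libraries of the line, the median after washout was 63.0% in H2052 (12 of 12 below) and 107% in MSTO-211H (3 of 12 below), while H2452 was at 97.2% (7 of 12) and H28 at 53.8% (12 of 12), and with palbociclib MSTO-211H was at 35.4% and H2052 at 10.9%. The summed level of the 12 kinesins in MSTO-211H was 6516 and 4792 CP20M in the 9-day and 11530 in the 10-day DMSO libraries and 6534 after washout, and in H2052 it was 18474, 10055 and 11677. In H28 the washout library was thus below DMSO with either reference. With 1 washout library a line, the difference between the lines was not tested. The nearest to a call was KIF15 at -0.89 (adjusted p = 0.083), and KIF23 was at -0.04. KIF1A in H2452 was at 705 CP20M after washout, above the 380 with palbociclib and the 15 in DMSO.

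**Figure D4:**
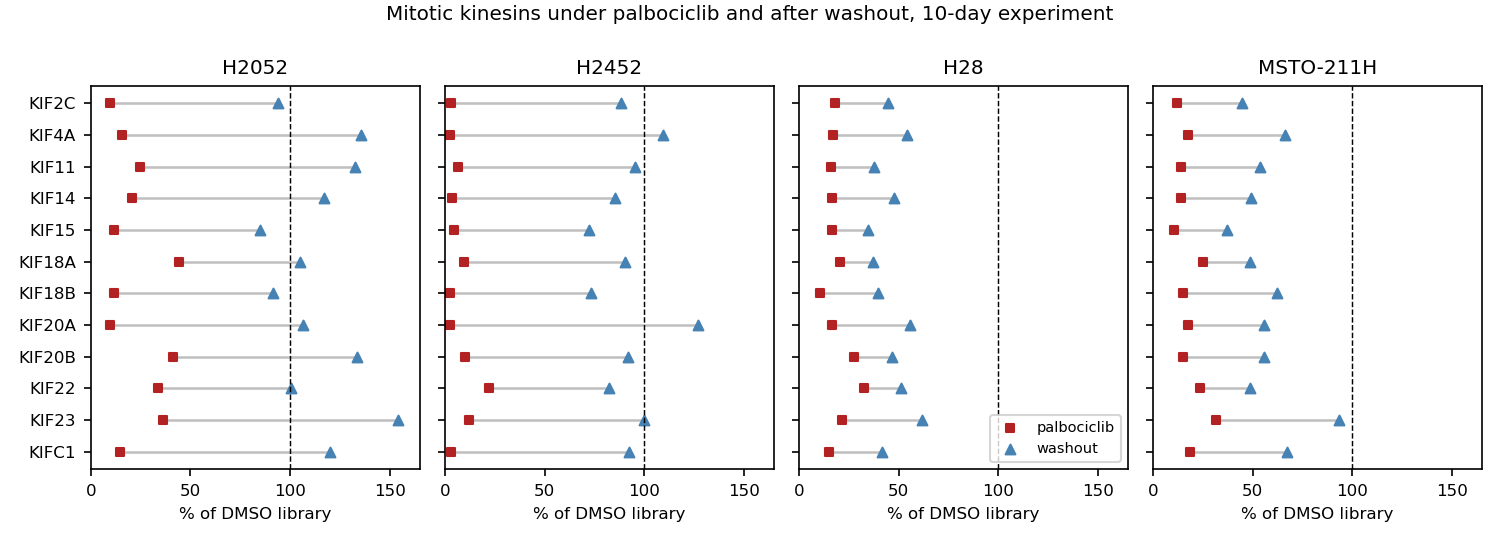
Level of the 12 mitotic kinesins (y axis) with palbociclib and after washout as a percent of the DMSO library of the same experiment (x axis), in 1 panel for each sensitive line, with a dashed line at 100%. The washout points lie around the dashed line in H2052 and H2452, with medians of 112% and 91.3%, and to the left of it in H28 and MSTO-211H, with medians of 45.6% and 54.6%, but relative to the 9-day DMSO libraries the medians of H2052 and MSTO-211H would be 63.0% and 107%.

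In DMSO, levels of all 39 tested kinesins differed between the lines (limma F test at FDR under 0.05), as did 95.6% of all genes. KIF12 passed the filter only through H28 and KIF4B only through MPP89, so for them a difference was built in by the filter. Per kilobase of exon, and as a median over the 6 lines, the highest kinesins were KIF5B (1078 CP20M per kb), KIF1C (611), KIF20A (570), KIFC1 (480), KIF11 (400), KIF2C (392), KIF18B (368) and KIF3B (354). The ratio of the highest to the lowest line, on the CP20M + 10 scale, was 2.19 to 9.88 with a median of 5.10 for the mitotic kinesins, 1.69 to 193 with a median of 4.14 for the transport kinesins and 1.68 to 320 with a median of 4.07 for the others. KIF4B gave the 9.88 and KIF12 the 320. By line means, the mitotic kinesins were mostly highest in MeT-5A and lowest in MSTO-211H. KIF20A, for example, was at 1184 CP20M per kb in MeT-5A, 707 in MPP89, 587 in H2452, 554 in H28, 507 in H2052 and 230 in MSTO-211H. The order of H2452, H28 and H2052 lay within the spread of their libraries, at 2537, 2009 and 2235, at 2413, 1808 and 2176 and at 2352 and 1552 CP20M. Both ends of the ranking are uncertain too. MeT-5A has 1 DMSO library, where 12 mitotic kinesins summed to 34247 CP20M, against 29026 in its untreated library and 23546 and 23573 in MPP89. In the 10-day DMSO libraries this sum was 11530 in MSTO-211H, above the 10055 in H2052.

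The DMSO level of the mitotic kinesins also differed between the experiments of 9 and of 10 days. In MSTO-211H the 12 mitotic kinesins were a median 2.09 times as high in the DMSO library of 10 days as in the mean of the 9-day libraries, and all 12 were higher. In H2052 the ratio was 0.579 and all 12 were lower, and in H2452 and H28 it was 1.06 and 1.12. Days and experiment cannot be told apart here. With the 9-day or the 10-day experiments alone, 12 mitotic kinesins were called down with palbociclib over the sensitive lines.

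Some transport and other kinesins differed widely between the lines. KIF12, a kinesin known from kidney, was at 2104, 4278 and 3174 CP20M in the DMSO libraries of H28 and at 2055, 3825 and 2082 with palbociclib. It was at 0 in all 5 H2052 libraries, at 3 or less in H2452, at 10 or less in MSTO-211H and at 74 or less in MPP89 and MeT-5A. KIF1A was highest in MSTO-211H, as given above, and KIF5C in H2052 and MPP89 (745 and 768 CP20M in DMSO). KIF26A in DMSO was at 2016, 1572 and 1058 CP20M in H28, at 921 in MeT-5A (1326 in the untreated library), at 464, 163 and 452 in H2452, at 273 and 293 in MPP89, at 48, 105 and 161 in MSTO-211H and at 29 and 34 in H2052. KIF21B was at 0 in all 5 H2052 libraries and in DMSO at 465 and 479 in MPP89, at 297 in MeT-5A and at 119 or less in the other 3 lines. For both KIF12 and KIF26A, every H28 library was above every H2052 library. The share of all genes that separate these lines was not counted, and KIF12 passed the filter only through H28.

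**Figure D5:**
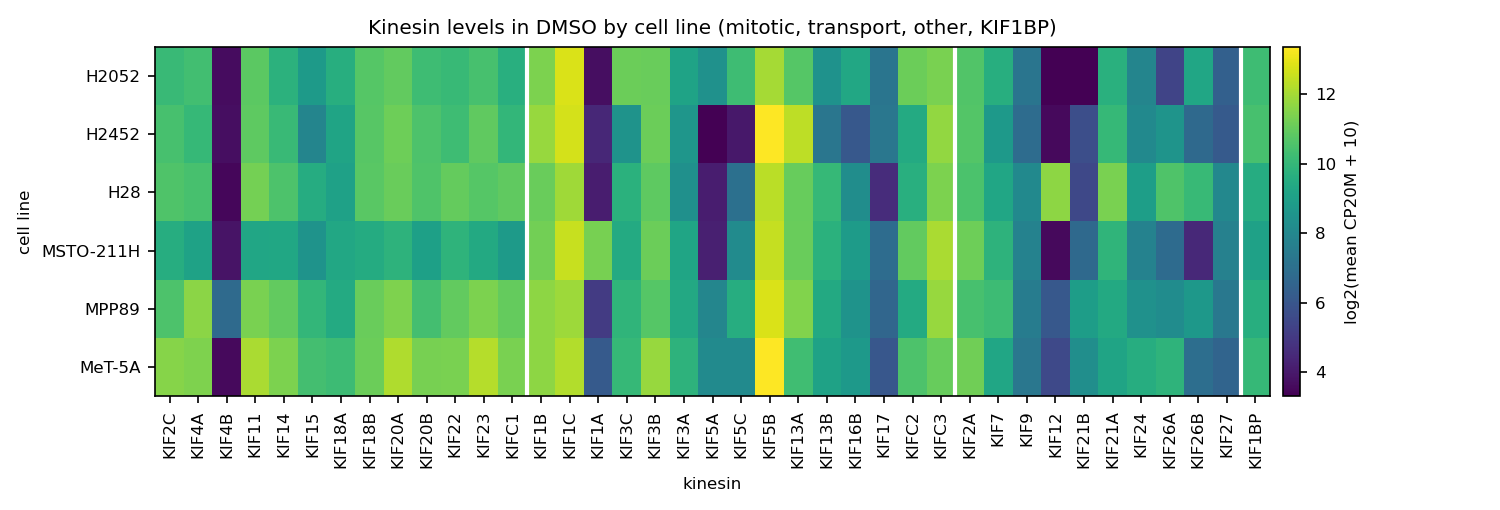
Mean DMSO level of each kinesin (x axis, ordered by group) in each cell line (y axis) as log2(mean CP20M + 10), shown by colour. KIF12 stands out in H28 and KIF1A in MSTO-211H, while KIF5B and KIF1C are high in every line.

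The proteins that work with these motors were followed in lists. Of 24 spindle and cytokinesis genes, 23 were called down over the sensitive lines, beside 9.37% of all genes, and 1 was not. Their median change was -2.17. BIRC5, of the Aurora B complex that KIF20A carries, changed by -2.93, and NUF2, of the kinetochore, by -2.84. MAPRE1, which binds growing microtubule ends, changed by 0.02 and was not called, and CKAP5, a microtubule polymerase, had the smallest fall of the list (-0.59). After washout, 18 of the 24 were called up against palbociclib, beside 1.4% of all genes, but 7 without H28 and 0 without H2052, H2452 or MSTO-211H. Of 27 partners of transport kinesins, 1 was called up and none down, with a median of 0.07, while 5.58% of all genes were called up. The gene called was MAPK8IP2, a scaffold that links cargo to kinesin light chains (1.48, limma, adjusted p = 0.00032). FEZ1, an adaptor, changed by 0.57 and MADD, a partner of KIF1A, by -0.51, both under the fold required. The summed level of the 12 mitotic kinesins in H2452 was 16980, 13512 and 16544 CP20M in DMSO and 1260, 1928 and 1112 with palbociclib, beside 33592, 32485 and 33766 and then 33705, 33707 and 31214 for the 15 transport kinesins.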

How the data were processed

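RNA of 6 cell lines was measured in 33 directional paired-end libraries. Per the submitters' processing notes and the study's methods, the authors trimmed reads with Trimmomatic 0.36, mapped them to GRCh38 with STAR 2.5.3, counted them per gene of Ensembl 90 with HTSeq 0.9.1 and scaled each library to 20000000 reads, which gives CP20M. Values as deposited are thus a normalized score that the authors rounded up, and each library adds up to between 20007662 and 20021400. The authors called genes with DESeq2, which was not used here because scaled values are not counts. The depth of 23 libraries was read from the whole numbers that rounding skips, and the other 10 skip none. Replicates were equal at 4.33% of tested genes at most, so none was taken for a copy.

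Genes at 100 CP20M in at least 1 library (17803) were fitted as log2(CP20M + 10) with limma 3.58.1 in R 4.3.3 (lmFit, eBayes with trend), and calls had an FDR under 0.05 and a fold change over 1.5. The pseudocount understates changes of low genes. Fits were made over the 11 sensitive pairs, with a term for each line over all 14 pairs (the single MeT-5A pair is taken to vary like the others), with a term for the class, over the 12 libraries of the washout experiments, and over the DMSO libraries. The experiment was a block. It comes from the numbers in the labels and from the study's methods, and deviations of DMSO and palbociclib libraries of the same experiment from their group means correlated with r = 0.18 to 0.78 over genes. The functions were tested on simulated data.

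Every tested mitotic kinesin, and of the other groups every member called over the sensitive lines or else the 3 largest rises and falls, was named, with values in each library for the 4 mitotic kinesins with the largest fall. Members called in single lines, and those with line-specific levels, were picked for mention with their values known. The members, groups and lists were chosen with earlier results of these data known. Alternatives were pseudocounts of 1 and 50, other filters and scalings, no trend, no replicate block, line means, 9 or 10 days alone, a fit per line, and leaving out each pair or line, with the 9-day DMSO libraries as the reference for washout levels added after seeing the data. Positions are from GENCODE 44, and promoters from RefSeq (GRCh38.p14). Figures were drawn with matplotlib 3.10.9.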

Additional observations from a re-analysis of the deposited data

Results flagged for a closer look

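The response to palbociclib differed between the sensitive and the resistant lines for 12 mitotic kinesins and KIF24 (limma interaction term). Of all genes, 5.62% were called lower and 1.13% higher. The differences on the log2 scale were -3.14 for KIF18B, -2.96 for KIF20A, -2.95 for KIF2C, -2.81 for KIFC1, -2.77 for KIF4A, -2.74 for KIF14, -2.59 for KIF15, -2.50 for KIF11, -1.89 for KIF23, -1.84 for KIF20B, -1.58 for KIF18A, -1.47 for KIF22 and -0.92 for KIF24. The test has 3 resistant pairs from 2 lines, and KIF11 and KIF15 alone were called when any of the pairs was left out. With line means as units, KIF15 alone of the 12 was called.

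The response differed among the 4 sensitive lines for 9 of the 13 tested mitotic kinesins (limma F test over all genes). Of all genes tested, 43.6% passed this test. The 11 members outside the mitotic group given below, of 26 tested, are near that share. The adjusted p-values were 0.0022 for KIF4A, 0.0022 for KIF20A, 0.0036 for KIF23, 0.0054 for KIF18B, 0.0072 for KIF14, 0.0099 for KIFC1, 0.024 for KIF2C, 0.030 for KIF20B and 0.036 for KIF11. By the same test, 11 other members differed, with adjusted p-values of 3.9e-05 for KIF16B, 0.00027 for KIF7, 0.0011 for KIF1A, 0.0018 for KIF26B, 0.0022 for KIF3C, 0.0033 for KIF21A, 0.0049 for KIF1BP, 0.0057 for KIF5C, 0.0066 for KIFC3, 0.025 for KIF5A and 0.041 for KIF21B. No line and condition had more than 3 libraries, so no library was tested for standing apart from its group.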

How the results depend on the processing

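The count of mitotic kinesins called lower was 12 or 13 over the sensitive lines under every alternative run, 12 in H2452, 10 to 12 in H2052 and H28 and 8 to 13 in MSTO-211H, with 8 in a fit of that line alone. Between 30 and 39 kinesins differed between lines in DMSO. The tally over alternatives covers the counts, the medians and the values of 25 named genes. Of these, 1124 stayed as they were (for a gene the same direction and side of the threshold, for a count within 1.5 times, for a median within the spread of the pairs or DMSO libraries). Another 59 counts or levels moved further, 9 gene calls were lost, 7 were gained and 5 gene values changed sign, all of KIF12. KIF13A, KIF13B, KIF17, KIF21A and KIF27, whose values turned positive with other scaling, were not among the 25. The median level after washout went from 112% to 63.0% of DMSO in H2052 and from 54.6% to 107% in MSTO-211H when the 9-day DMSO libraries were the reference, an alternative chosen after seeing the data. Leaving out single pairs or lines gave ranges of 2 to 12 (12 with all) mitotic kinesins for the difference between sensitive and resistant lines, 0 to 1 (1) for kinesins outside the mitotic group in that difference, 0 to 5 (11) for mitotic kinesins after washout against palbociclib, 0 to 1 (0) transport kinesins and 1 to 2 (2) other kinesins called over the sensitive lines, and, for calls outside the mitotic group in single lines, 1 to 5 (5) down in H2052, 2 to 4 (4) down in H28, 1 to 2 (1) down and 0 to 1 (0) up in MSTO-211H. KIF12, at 0.02, was between -0.038 and 0.077 in these and at -0.048 with a pseudocount of 50.

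With no filter, 5 mitotic kinesins were called in the difference between classes, 0 after washout and 3 among the sensitive lines, and 0 kinesins outside the mitotic group in the difference between classes. With line means these were 1 and 0 in the difference between classes, and other kinesins called down over the sensitive lines fell to 1, as with a pseudocount of 50, either rescaling, or 9-day or 10-day experiments alone. KIF7 is the call lost, and it passed the FDR but not the fold with a pseudocount of 50 (-0.56) and with either rescaling. It did not pass the FDR with line means (-0.66, limma, adjusted p = 0.11). The same held for the 9-day (-0.64, adjusted p = 0.058) and the 10-day experiments alone (-0.57, adjusted p = 0.12). Transport kinesins went from 0 to 1 with median-of-ratios scaling (KIF16B, 0.64) and with the 9-day experiments (KIF5C, -0.62). Without H2452 pair 2 or 3 KIF5C was called at -0.69 and -0.82, and without H28 pair 2 KIF1A at 1.02. Calls down outside the mitotic group in H2052 were 3 with a pseudocount of 1, no filter, either rescaling or a fit per line, and in H28 2 with either rescaling. Calls up went from 0 to 2 in H2052 with median-of-ratios scaling, and in MSTO-211H to 3 with that scaling, 2 with upper-quartile scaling and 2 with a pseudocount of 1, where 2 were also down. Median-of-ratios scaling left 0 kinesins outside the mitotic group in the difference between classes. A filter within the fit gave 1 such kinesin after washout against palbociclib, and a pseudocount of 50 gave 1 kinesin after washout against DMSO. KIF4B was called only with a pseudocount of 1 (-1.17). The causes of these moves were not tested.

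Without the replicate block that pairs DMSO and palbociclib libraries, 3 mitotic and 6 other kinesins differed among the sensitive lines, 1 transport kinesin was called over the sensitive lines (KIF5C), and outside the mitotic group 0 were called in the difference between classes, 1 down in H2052 and 1 down in H28. The block changed no other count beyond 1.5 times. Depth limits the low members, since a read is worth up to 1.57 CP20M.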
